A study of Rattus norvegicus with 40 samples.

Results

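The 6 genes described here, Aox3, Inmt, Obp3, Cela1, Tenm2 and LOC100360095, were picked by symbol from the 17337 genes counted in rat liver. They were picked because their messenger RNA fell steeply in liver treated with N-nitrosodiethylamine (DEN) at 8 weeks and because several of them were higher again at 20 weeks. DEN is a carcinogen that liver cells activate into a DNA-damaging product, and repeated doses bring about liver damage, fibrosis and liver tumors in rats.

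RNA was sequenced in 40 liver libraries from 24 male Fischer 344 rats. Rats of the DEN groups were 7 weeks old at the first weekly intra-peritoneal injection of 50 mg/kg. They gave non-tumoral (NT) liver after 8 weeks of injections, NT liver and 2 nodules each after 14 weeks of injections, and NT liver and 2 nodules each at 20 weeks, which were 14 weeks of injections and 6 weeks without DEN. Untreated (no DEN) rats of the same age gave liver at 8, 14 and 20 weeks, and every group held 4 rats. The rats of the 20-week groups were other animals than those of the 14-week groups, so a return over time was seen between animals and never within an animal. NT liver at 14 and 20 weeks came from livers that also carried nodules.

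Counted read pairs per library ran from 20528515 to 160622633, with a median of 30477421. The deepest library, NT liver of rat H26 at 20 weeks, held 4.08-fold the pairs of the next. Rat names begin with F or H, which the labels do not explain. All no DEN rats were H rats, and each DEN group held 1 or 2 F rats. Hepatocyte markers were abundant in every group, with the summed level of 7 markers between 164349 and 340281 CPM, counts scaled to the library size.

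The word recovery fits the data only in part. At 20 weeks the mean of each gene in NT liver stood between 10.5% (Cela1) and 50.1% (LOC100360095) of the mean in no DEN rats of the same age, and none had reached the untreated level. In nodules at 20 weeks the means stood between 7.86% (Tenm2) and 27.7% (LOC100360095). The lowest point was at 14 weeks for all 6 genes in NT liver, at 0.664% to 6.46% of untreated. Levels are CPM scaled by the trimmed mean of M values (TMM) and are compared only within a gene, since no transcript lengths were used.

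The genes belong to different parts of liver biology. Aox3 encodes an aldehyde oxidase, a molybdenum-containing enzyme that oxidizes aldehydes and nitrogen heterocycles, and Inmt encodes a methyltransferase that adds methyl groups to indoleamines such as tryptamine. Obp3 encodes a secreted lipocalin of the odorant-binding kind, related to the alpha-2u globulins that liver of male rats releases into blood and that end up in urine. LOC100360095 carries the RefSeq synonym Rup-4, a urinary protein name, and its neighbours in the RefSeq gene order include Rup2. Cela1 encodes an elastase best known from the digestive enzymes of pancreatic acinar cells, and Tenm2 encodes a teneurin, a large membrane protein of cell contacts in the nervous system.

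**Figure D1:**
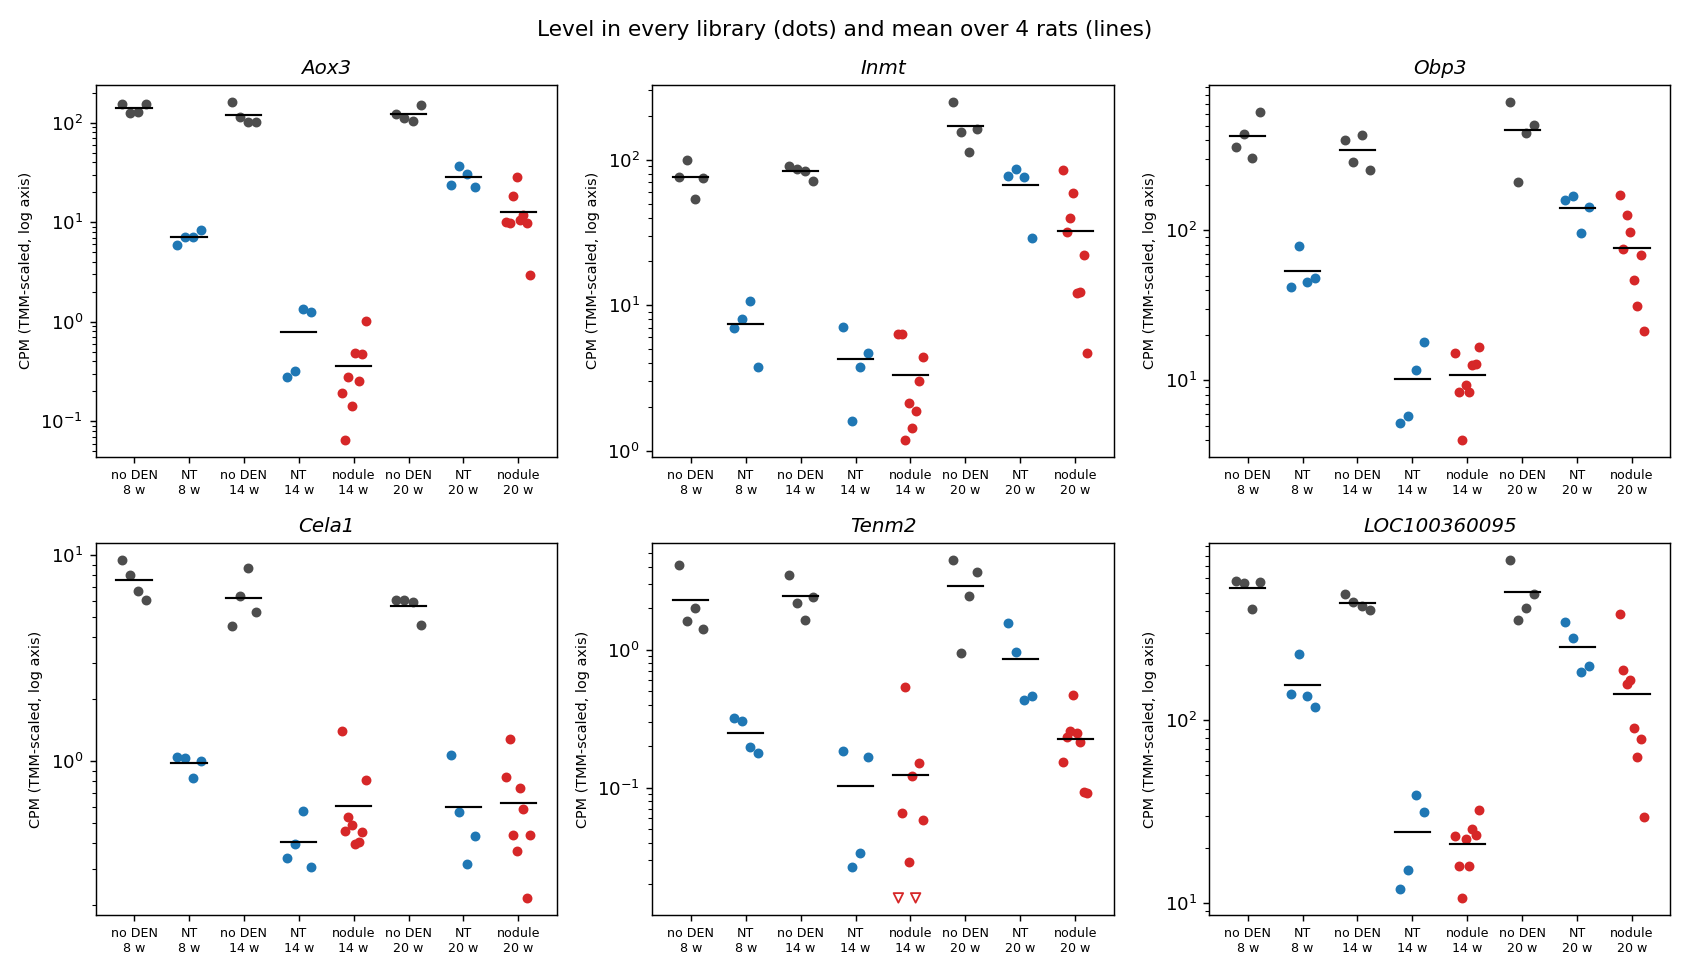
Level of each gene in all 40 libraries (dots; CPM scaled by TMM, log axis) in the 8 groups, with the mean over 4 rats as a line and nodules shown one by one. Open triangles mark nodules with 0 counts. In Aox3, for example, the 4 NT livers at 14 weeks sit between 0.277 and 1.34 CPM and the 4 at 20 weeks between 22.7 and 36.7 CPM, all below the untreated livers.

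Promoter windows of the genes are printed where a searched sequence occurred, together with that of Aox3, the gene with the deepest fall. All 6 genes were found in the RefSeq promoter table (rat build GRCr8, 250 bases before to 50 bases after the start of the gene), whereas the counts were made on rn6. The sequences of 5 factor types were searched on both strands. Capitals mark a match, which is a description of letters and not a binding site.
Aox3, chr9:67158750-67159049, plus strand: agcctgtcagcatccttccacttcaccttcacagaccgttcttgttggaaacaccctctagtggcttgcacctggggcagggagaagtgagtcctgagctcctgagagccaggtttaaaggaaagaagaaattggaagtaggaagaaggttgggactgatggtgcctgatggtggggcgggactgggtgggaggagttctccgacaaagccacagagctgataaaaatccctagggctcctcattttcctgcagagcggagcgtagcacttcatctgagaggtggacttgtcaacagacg
Obp3, chr5:79640626-79640925, minus strand: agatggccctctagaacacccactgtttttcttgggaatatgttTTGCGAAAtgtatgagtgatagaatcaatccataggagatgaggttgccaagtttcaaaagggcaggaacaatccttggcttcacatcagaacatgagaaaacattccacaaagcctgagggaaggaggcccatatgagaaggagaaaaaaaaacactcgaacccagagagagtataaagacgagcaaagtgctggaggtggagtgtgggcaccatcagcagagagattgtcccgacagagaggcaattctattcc
LOC100360095, chr8:42933818-42934117, minus strand: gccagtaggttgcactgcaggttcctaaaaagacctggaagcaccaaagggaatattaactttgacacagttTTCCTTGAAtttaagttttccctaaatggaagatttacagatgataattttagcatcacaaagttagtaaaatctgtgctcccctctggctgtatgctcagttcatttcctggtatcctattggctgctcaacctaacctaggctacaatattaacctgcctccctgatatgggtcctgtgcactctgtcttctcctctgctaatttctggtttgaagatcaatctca

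The STAT5-type sequence TTCNNNGAA occurred in 1 of the 6 windows, that of LOC100360095, where it started at position -178 from the gene start, and in 8.87% of all 33469 promoter windows. The C/EBP-type sequence TTGCNNAA occurred in 1 window, that of Obp3, at position -206, and in 10.6% of all windows. No window of the 6 genes held the AP-1-type sequence TGACTCA (4.63% of all windows), the HNF1-type sequence (0.00299%) or the HNF4-type direct repeat (0.0538%). The 6 genes thus shared none of the 5 sequences in these windows, and Obp3 and LOC100360095 lie on different chromosomes.

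Aox3 showed the deepest fall and the steepest return. In no DEN rats it measured 155, 125, 127 and 155 CPM at 8 weeks, against 5.92, 7.17, 7.18 and 8.44 CPM in NT liver of DEN rats. All 4 DEN rats thus stood far below all untreated rats, and the mean was 5.11% of untreated. Since the gene was chosen on this comparison, its log2 fold change of -4.28 (SE 0.13) is a description. In bulk tissue, fewer cells of a type and less RNA per cell cannot be told apart, here and below. At 14 weeks the untreated rats measured 162, 115, 102 and 101 CPM and NT liver 0.277, 0.318, 1.34 and 1.26 CPM, which were 9 to 45 counts per library. The nodules of the same 4 rats, with both nodules of a rat summed, measured 0.125, 0.216, 0.359 and 0.727 CPM. Aox3 was therefore close to the floor of detection in the whole DEN-treated liver at 14 weeks, at 0.664% of untreated in NT liver and 0.297% in nodules.

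At 20 weeks Aox3 measured 122, 111, 105 and 151 CPM in untreated rats and 23.6, 36.7, 30.9 and 22.7 CPM in NT liver. In nodules it measured 9.92, 24.01, 11.3 and 5.90 CPM. The groups of untreated and DEN rats still did not overlap, and the level stood at 23.3% of untreated in NT liver (log2 fold change -2.09, SE 0.16, given as a description) and at 10.5% in nodules. All 8 nodules at 14 weeks and all 8 at 20 weeks were below the NT liver of their own rat.

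Inmt, the methyltransferase, followed a like course and ended at a higher percent of untreated than Aox3, though its change from 14 to 20 weeks was smaller on the log2 scale. It measured 76.4, 100.2, 53.7 and 75.1 CPM in untreated rats at 8 weeks and 7.01, 8.02, 10.8 and 3.75 CPM in NT liver of DEN rats, without overlap (log2 fold change -3.35, SE 0.30, a description). At 14 weeks untreated rats measured 91.1, 86.8, 83.9 and 71.6 CPM, NT liver 7.13, 1.59, 3.75 and 4.71 CPM, and the nodules of the same rats 6.34, 1.63, 1.67 and 3.68 CPM. NT liver and nodules lay in the same range at that time, at 5.15% and 3.99% of untreated.

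By 20 weeks Inmt in untreated rats had itself moved up, to 249.999, 155, 114 and 162 CPM. NT liver measured 77.8, 86.8, 76.0 and 29.1 CPM and the nodules 53.3, 50.9, 12.2 and 12.05 CPM. The NT mean of 67.4 ± 25.98 CPM (SD, n = 4) was 39.7% of untreated rats of the same age (log2 fold change -1.33, SE 0.36). Untreated rats at 14 weeks had measured 83.4 ± 8.38 CPM (SD, n = 4), so the percent at 20 weeks is taken of a higher reference. The nodules split by rat, with rats F03 and H25 well above rats H26 and H28.

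Obp3, the secreted lipocalin, was next to Aox3 in the depth of its fall at 14 weeks. Untreated rats at 8 weeks measured 359, 438, 304 and 613 CPM, and NT liver 41.8, 78.6, 45.2 and 48.5 CPM. Untreated rats at 14 weeks measured 398, 284, 431 and 253 CPM, NT liver 5.23, 5.80, 11.7 and 18.2 CPM, and nodules 11.5, 6.53, 10.7 and 14.6 CPM. The fall thus went on between 8 weeks (12.5% of untreated) and 14 weeks (2.99%), and nodules (3.18%) lay at the level of NT liver. At 20 weeks untreated rats measured 720.1, 209.6, 447 and 504 CPM, NT liver 159, 169, 96.9 and 143 CPM, and nodules 115, 110.1, 38.3 and 41.6 CPM. No DEN rat reached the lowest untreated rat, and the means were 30.2% of untreated in NT liver and 16.2% in nodules.

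LOC100360095, the Rup-4 gene, fell less than the others at 8 weeks and came closest to the untreated level. At 8 weeks it measured 583, 569, 409 and 573 CPM in untreated rats and 139, 232, 136 and 118 CPM in NT liver, or 29.3% (log2 fold change -1.77, SE 0.20, a description). At 14 weeks the untreated rats measured 490.1, 445, 425 and 401 CPM, NT liver 11.9, 15.1, 39.2 and 31.4 CPM and nodules 19.2, 16.1, 21.001 and 27.5 CPM. The means were 5.54% of untreated in NT liver and 4.76% in nodules, against 0.664% for Aox3 in NT liver. At 20 weeks it measured 756, 353, 413 and 491 CPM in untreated rats, 346, 282, 184 and 198 CPM in NT liver and 268, 163, 75.8 and 50.7 CPM in nodules. The highest NT liver (346 CPM, rat F03) lay just under the lowest untreated rat (353 CPM, rat H14), and the mean was 50.1% of untreated.

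Cela1, the elastase gene, fell and showed no return of the size seen in the other genes. It measured 9.50, 8.04, 6.72 and 6.06 CPM in untreated rats at 8 weeks and 1.05, 1.03, 0.823 and 1.00 CPM in NT liver. At 14 weeks it measured 4.56, 6.36, 8.70 and 5.33 CPM in untreated rats, 0.338, 0.397, 0.569 and 0.307 CPM in NT liver and 0.890, 0.513, 0.400 and 0.620 CPM in nodules. At 20 weeks it measured 6.07, 6.07, 5.92 and 4.57 CPM in untreated rats, 1.07, 0.566, 0.315 and 0.434 CPM in NT liver and 1.10, 0.394, 0.657 and 0.342 CPM in nodules. The percent of untreated in NT liver was 12.9% at 8 weeks, 6.46% at 14 weeks and 10.5% at 20 weeks, so the 20-week mean remained below that at 8 weeks. Rat F03 was the highest of its group in both NT liver and nodules.

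Cela1 in untreated liver was not accompanied by other pancreatic enzymes. The summed level of 18 other acinar enzyme genes was 0.331 to 1.27 CPM in untreated rats, and 7 to 10 of the 18 had 0 counts in all 4 rats of an untreated group. In DEN-treated liver that sum was higher, at 1.97 to 5.85 CPM in NT liver and 4.02 to 19.2 CPM in nodules at 20 weeks, while Cela1 stayed low. Most of the sum in those nodules came from 2 genes, named after their values were seen: Cpa1, a carboxypeptidase gene, with a mean of 5.78 CPM, and Ctrc, a chymotrypsin gene, with 2.78 CPM, of a mean sum of 9.62 CPM. The digestive enzyme genes Prss1, Prss2, Ctrb1 and Pnlip had 0 counts in all 4 rats. Ctrc was the only member of this list abundant enough to be tested in NT liver at 14 weeks, and it rose (log2 fold change 2.90, SE 0.39, edgeR adjusted p = 0.000152).

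Tenm2, the teneurin gene, was the least counted of the 6. Untreated rats measured 4.12, 1.63, 1.999 and 1.42 CPM at 8 weeks, against 0.318, 0.304, 0.198 and 0.179 CPM in NT liver (5 to 10 counts). At 14 weeks untreated rats measured 3.50, 2.19, 1.65 and 2.39 CPM, NT liver 0.184, 0.0265, 0.0335 and 0.167 CPM (1 to 6 counts), and nodules 0.0356, 0.297, 0.0552 and 0.108 CPM. Of the 8 nodules at 14 weeks, 2 had 0 counts, which allows up to 3 counts each, and single read pairs weigh heavily at this depth. At 20 weeks untreated rats measured 4.46, 0.939, 2.45 and 3.64 CPM, NT liver 1.57, 0.963, 0.432 and 0.463 CPM, and nodules 0.201, 0.379, 0.230 and 0.0922 CPM. Tenm2 was the only gene of the 6 in which NT liver overlapped with untreated rats, since 2 of 4 NT livers lay above the lowest untreated rat, and all 8 nodules at 20 weeks were below the NT liver of their own rat.

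**Figure D2:**
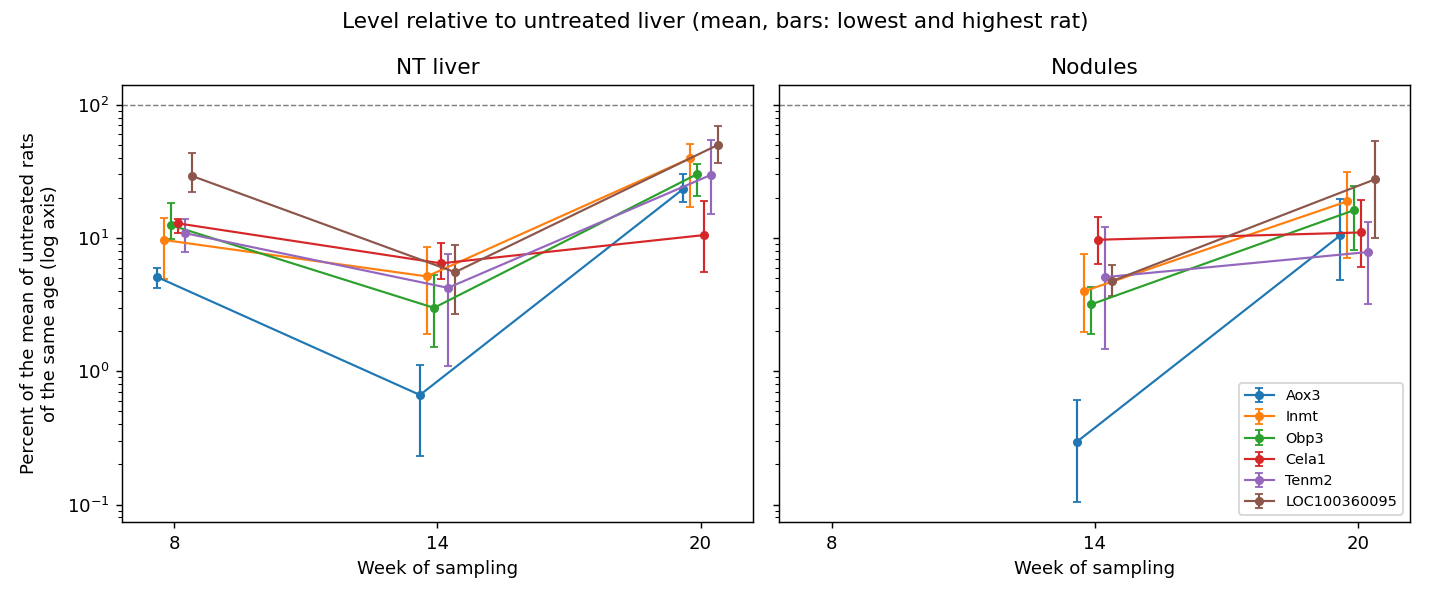
Mean level in NT liver (left) and nodules (right) as a percent of the mean in untreated rats of the same age (log axis) by week, with bars from the lowest to the highest of the 4 rats. In NT liver 5 lines go down from 8 to 14 weeks and up to between 23.3% and 50.1% at 20 weeks, while Cela1 ends at 10.5%, and every mean stays under the dashed line at 100%.

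The comparisons at 14 weeks, of NT liver and of nodules against no DEN liver, were not used to choose the genes, though they were known when the genes were chosen. In NT liver all 6 genes were lower past the threshold of a 2-fold change with an adjusted p of at most 0.01, where 2.1% of the 11016 genes tested were called lower. Aox3 fell by 7.23 on the log2 scale (SE 0.42, edgeR adjusted p = 1.07e-05). Obp3 fell by 5.04 (SE 0.46, edgeR adjusted p = 9.45e-05), Tenm2 fell by 4.49 (SE 0.44, edgeR adjusted p = 2.14e-05), and Inmt fell by 4.27 (SE 0.37, edgeR adjusted p = 6.29e-05). LOC100360095 fell by 4.15 (SE 0.40, edgeR adjusted p = 0.000106), and Cela1 fell by 3.93 (SE 0.27, edgeR adjusted p = 3.26e-06). In all 6 genes every DEN rat was below every untreated rat, which held for 24.7% of the genes tested. The median log2 fold change was -4.38 over the 6 genes and 0.02 over all genes tested.

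In nodules at 14 weeks all 6 genes were again lower, here past a log2 fold change of 0.5 in size with an adjusted p of at most 0.05, where 15.2% of 11316 genes were called lower. Aox3 fell by 8.37 (SE 0.44, edgeR adjusted p = 4.15e-06) and Cela1, with the smallest change, fell by 3.39 (SE 0.30, edgeR adjusted p = 4.29e-05) on the log2 scale. The other 4 genes lay between, with log2 fold changes of -5.00 for Obp3, -4.68 for Inmt, -4.42 for LOC100360095 and -4.25 for Tenm2. Nodule 1 of rat H21 held 21 counts of Tenm2 and the other 7 nodules 0 to 6, and the Tenm2 value was -5.11 without rat H21, -3.47 with nodule 1 alone and -5.94 with nodule 2 alone, past the threshold each time. In all 6 genes every rat, with its nodules summed, was below every untreated rat, which also held for 23.4% of all genes tested. This comparison shares its untreated rats with that of NT liver, and its nodules come from the same rats.

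At 20 weeks the nodules still stood below untreated liver, which is given as a description because the week-20 values bore on the choice of genes. The log2 fold changes were -3.70 for Tenm2 (SE 0.51), -3.28 for Aox3 (SE 0.38), -3.21 for Cela1 (SE 0.34), -2.64 for Obp3 (SE 0.46), -2.43 for Inmt (SE 0.51) and -1.88 for LOC100360095 (SE 0.47). All 6 were past the nodule threshold, as were 15.2% of 11199 genes, and nothing is read from that count. With both nodules of a rat summed, no rat overlapped with an untreated rat, as in 21.4% of all genes. Taken singly, nodule 1 of rat F03 measured 382 CPM of LOC100360095 and lay above untreated rat H14 (353 CPM). Without the F rats, all 6 genes kept their calls in NT liver and in nodules at 14 weeks.

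In NT liver at 20 weeks, the comparison the choice of genes drew on, the log2 fold changes are given as a description. They were -3.36 for Cela1 (SE 0.33), -2.09 for Aox3 (SE 0.16), -1.83 for Tenm2 (SE 0.52), -1.72 for Obp3 (SE 0.35), -1.33 for Inmt (SE 0.36) and -0.99 for LOC100360095 (SE 0.27). At the NT threshold 2 of the 6, Aox3 and Cela1, were still past it, where 0.333% of 10827 genes were called lower. The number was also 2 without untreated rat H16 (0.172% of all genes called lower) and without DEN rat H28 (0.565%). The number was 6 by DESeq2 (0.627% of all genes called lower), 4 with all 8 groups in the fit (0.552%), 3 with the scaling of DESeq2 (RLE) in edgeR (0.416%) and 3 without untreated rat H14 (0.209%), which had the lowest Obp3, Tenm2 and LOC100360095 of its group. In 5 of the 6 genes every NT liver was below every untreated rat, as in 12.1% of all genes. At 8 weeks all 6 had been past it, with 0.62% of 10812 genes called lower and 16.1% without overlap, and nothing is read from these counts because these values chose the genes.

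The size of the return in nodules is described by the difference between the nodule effect at 20 weeks and that at 14 weeks, each against untreated rats of the same age. It was 5.09 on the log2 scale for Aox3 (SE 0.58), 2.53 for LOC100360095 (SE 0.55), 2.35 for Obp3 (SE 0.56) and 2.24 for Inmt (SE 0.70). For Tenm2 it was 0.55 (SE 0.77) and for Cela1 0.17 (SE 0.46), both smaller than their SE. Over the 24 alternative fits the Tenm2 value ran from -0.45 to 2.42 and the Cela1 value from -0.24 to 0.44. The size of the Tenm2 return in nodules is thus uncertain, and its 14-week value includes nodule 1 of rat H21 with 21 counts. For Aox3 the lowest rat at 20 weeks (5.90 CPM) lay above the highest at 14 weeks (0.727 CPM). Of the 6, only Aox3 was past an adjusted p of 0.05. It was the only gene called in that direction among the 11607 tested (0.00862%). Nothing is read from this because the genes were chosen for coming back at week 20.

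Nodules were set against the NT liver of the same rats. At 14 weeks none of the 5 genes with enough counts was called by edgeR without the pairing or with each rat as a block, and 0% of the 11466 genes tested were called in either fit. Without the pairing, none of the 5 had an unadjusted p under 0.05, and 1348 of all genes did. With the rat as a block, Aox3 did, as did 2518 of all genes, and its log2 difference of -1.14 (SE 0.29) had an edgeR adjusted p of 0.167, with all 4 rats in that direction. DESeq2 called 35 of all genes and none of the 3 members it tested. The log2 difference without the pairing, nodules minus NT liver, was -1.14 for Aox3 (95% interval -2.65 to 0.36), -0.38 for Inmt (-1.62 to 0.85), -0.23 for LOC100360095 (-1.05 to 0.59), 0.07 for Obp3 (-0.85 to 0.99) and 0.57 for Cela1 (-0.17 to 1.32). With the block it was -0.43 for Inmt (SE 0.21), -0.10 for LOC100360095 (SE 0.24), 0.18 for Obp3 (SE 0.24) and 0.54 for Cela1 (SE 0.35). Tenm2 was left out by the filter on low counts in these fits, and it was tested and not called with no filter and with all 8 groups in the fit. The intervals without the pairing are wide enough to hold a 2-fold difference in Aox3, Inmt, LOC100360095 and Cela1.

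By 20 weeks nodules stood below NT liver in 5 of the 6 genes, with Cela1 the exception. The log2 differences are a description, because the 20-week values bore on the choice of genes. They were -1.89 for Tenm2 (SE 0.53), -1.18 for Aox3 (SE 0.37), -1.10 for Inmt (SE 0.54), -0.92 for Obp3 (SE 0.37), -0.89 for LOC100360095 (SE 0.46) and 0.11 for Cela1 (SE 0.48). With each rat as a block, which uses the pairing of nodules and NT liver, they were -1.85 for Tenm2 (SE 0.35), -1.32 for Aox3 (SE 0.21), -1.31 for Inmt (SE 0.44), -1.12 for LOC100360095 (SE 0.28), -1.07 for Obp3 (SE 0.25) and 0.12 for Cela1 (SE 0.29). The number of the 6 past the nodule threshold was 0 without the pairing, where 0% of all genes were called lower, and 4 with the block, where 5.46% were. It was 2 by DESeq2, with 2.09% of all genes called lower, and 2 with all 8 groups in the fit, with 2.53%, and nothing is read from these counts. By nodule, 8 of 8 were below their own NT liver in Aox3 and Tenm2, 7 of 8 in Inmt, Obp3 and LOC100360095, and 4 of 8 in Cela1. These are 2 nodules from each of 4 rats. With the nodules of a rat summed, all 4 rats were lower in each of the 5 genes and 2 of 4 in Cela1, and nothing is read from these counts. Without the pairing, the median log2 difference over all genes tested was -0.02. The mean level in nodules at 20 weeks thus lay below that in NT liver for the 5 genes other than Cela1.

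**Figure D3:**
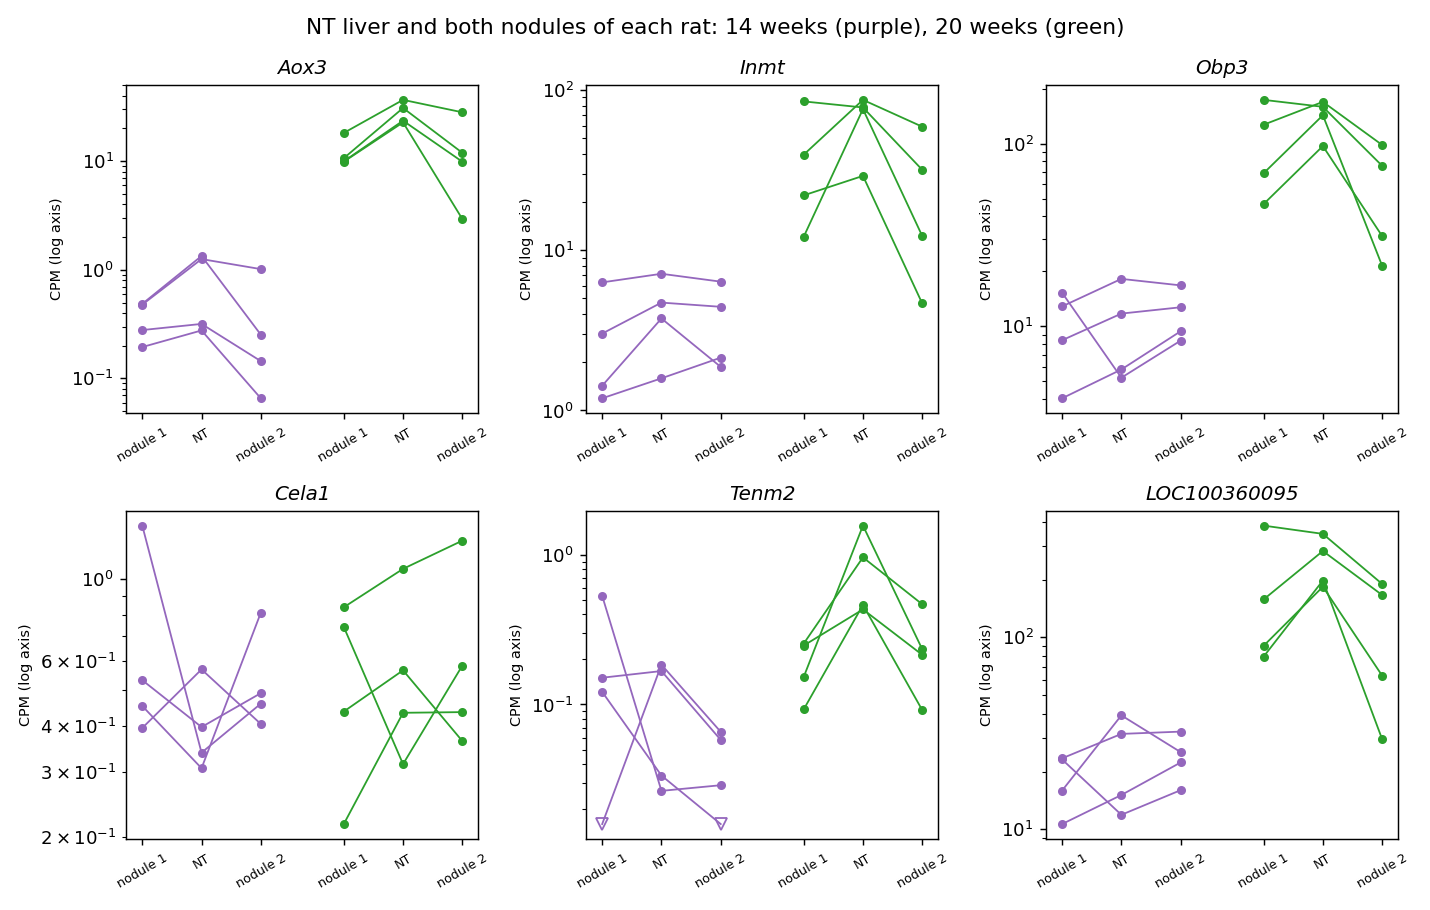
NT liver and both nodules of each DEN rat joined by a line (CPM, log axis), with rats at 14 weeks in purple and at 20 weeks in green. Open triangles mark nodules with 0 counts. At 20 weeks all 8 nodules lie below NT liver in Aox3 and Tenm2, whereas the Cela1 lines go both ways.

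The 6 genes were next placed among all genes that were lower in NT liver at 8 weeks. Of the 67 genes past the threshold, ordered by log2 fold change, Aox3 was number 1, Inmt 3, Tenm2 4, Obp3 5 and Cela1 6. The number past the threshold depended on the rats, at 46 without the F rats and 129 without rat H17, each time with all 6 genes among them. LOC100360095 was number 17 (log2 fold change -1.77), so genes outside the set fell more than it did. The largest falls outside the set were those of Nkx1-2, a homeobox gene and number 2 (-3.46), Lppr1, a phospholipid phosphatase-related gene (-2.51), and Ltc4s, the leukotriene C4 synthase gene (-2.47). Nkx1-2 stood at 27.1%, Lppr1 at 31.1% and Ltc4s at 49.5% of untreated in NT liver at 20 weeks. A partial return was therefore also measured in genes that were not picked.

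The other 61 genes had a median of 40.8% of untreated at 8 weeks, 36.2% at 14 weeks and 52.5% at 20 weeks in NT liver, and 26.1% and 30.8% in nodules at 14 and 20 weeks. The corresponding medians of the 6 genes were 11.7%, 4.69% and 30.01% in NT liver and 4.38% and 13.6% in nodules. In NT liver at 20 weeks 31 of the 61 genes and 1 of the 6 stood above 50% of untreated. No test was made of this difference, since the 6 were chosen for the depth of their fall.

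**Figure D4:**
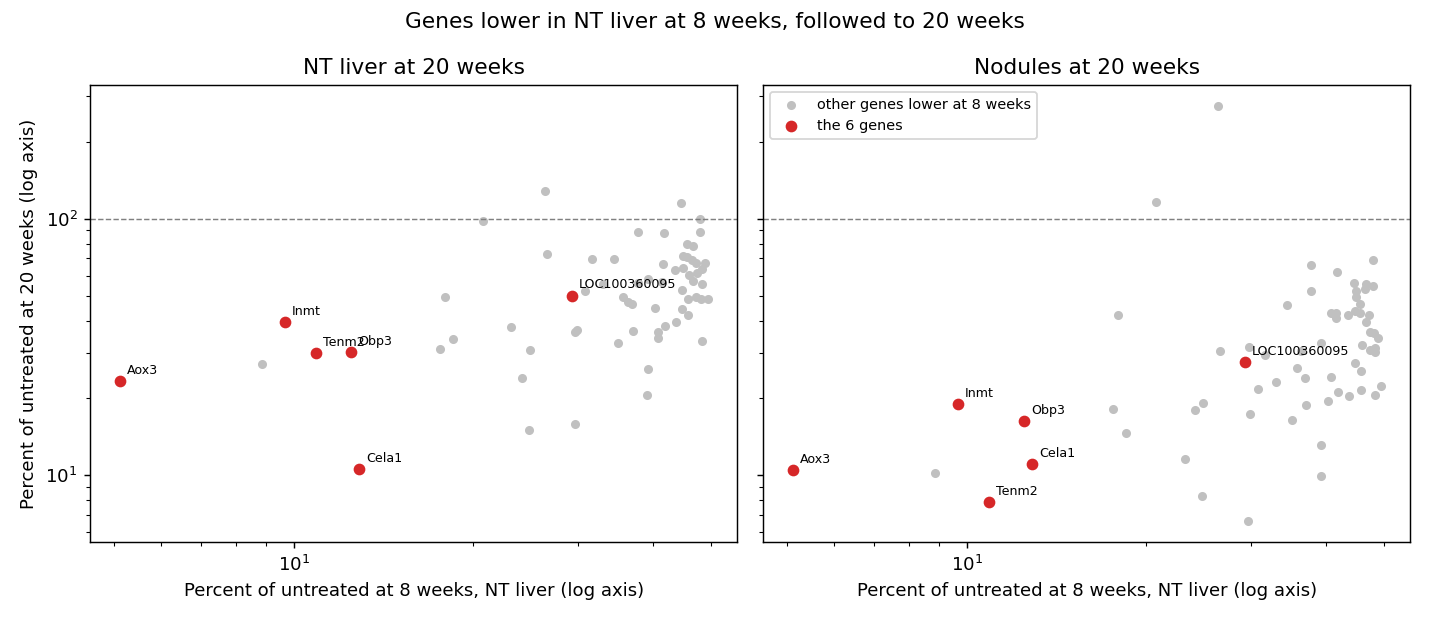
The 67 genes lower in NT liver at 8 weeks, with the percent of untreated at 8 weeks on the horizontal axis and at 20 weeks on the vertical axis, for NT liver (left) and nodules (right), both axes log. Of the 6 genes (red), 5 lie at the left, between 5.11% and 12.9% at 8 weeks, and LOC100360095 lies among the others at 29.3%, with Cela1 at 10.5% in NT liver at 20 weeks, and most other genes (grey) lie below the dashed line at 100%.

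Likeness of course was described by Pearson correlation of log2 CPM over 32 values (24 liver samples and 8 rat sums of nodules, which share DEN treatment as their main contrast) among 10097 genes. Aox3, Obp3 and LOC100360095 resembled each other (r = 0.97 for Aox3 with Obp3 and with LOC100360095, and 0.98 for Obp3 with LOC100360095). Stac3, known from muscle as a partner of the calcium channel, was the gene most like Aox3 (r = 0.98), and Mup5, an alpha-2u globulin gene, the one most like LOC100360095 (r = 0.98). LOC259245, of the same lipocalin list, was the next most like LOC100360095 (r = 0.98). Inmt was most like Obp3 (r = 0.93), Adk, the adenosine kinase gene (r = 0.91), and Aox3 (r = 0.91). Cela1 and Tenm2 had other neighbours. Cela1 was most like Cyb5r3 (r = 0.93), Lhpp (r = 0.93) and Apba3 (r = 0.93), and Tenm2 was most like Tmem163 (r = 0.94), Cpq (r = 0.94) and Mtfr1l (r = 0.93).

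Genes related to the 6 by family or pathway did not all fall. Of all genes tested, 2.1% were called lower and 13.1% higher in NT liver at 14 weeks, 15.2% lower and 23.9% higher in nodules at 14 weeks, and 15.2% lower and 23.6% higher in nodules at 20 weeks, and the counts of the lists stand beside these shares. Aox1, the aldehyde oxidase gene next to Aox3 in the RefSeq order, rose in NT liver at 14 weeks (log2 fold change 1.18, SE 0.24, edgeR adjusted p = 0.00236), while Marc1, a molybdenum enzyme gene, fell (-1.14, SE 0.14, edgeR adjusted p = 0.000104). They were the 1 gene higher and the 1 lower of 11 tested in that list, whose median was -0.36. Pairs matching several places were dropped in the counting, so levels of near-identical copies are uncertain. Among 7 small-molecule methyltransferases tested in NT liver at 14 weeks, Gnmt, the glycine methyltransferase of liver, fell (-1.36, SE 0.26, edgeR adjusted p = 0.00217) and none rose, with a median of -0.73. In nodules 6 of these 7 were lower and none higher, at 14 and at 20 weeks. Of the 11 genes in the list of Aox1 and Marc1, 6 were lower and 1 higher in nodules at 14 weeks, and 5 lower and 1 higher at 20 weeks.

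Of 10 alpha-2u globulins, other lipocalins and Rup2 tested in NT liver at 14 weeks, 6 fell and none rose, with a median log2 fold change of -1.96. Mup5 fell most (-3.43, SE 0.30, edgeR adjusted p = 3.95e-05), followed by the alpha-2u genes LOC259244 (-3.19, SE 0.27), LOC259245 (-3.18, SE 0.29) and LOC298116 (-3.08, SE 0.36). These are near-identical copies of which only uniquely placed pairs were counted, so how the fall divides among them is uncertain, and the list was drawn up with earlier results known. In nodules, 9 of 13 tested were lower and 1 higher at 14 weeks, and 6 of 10 were lower and none higher at 20 weeks. The number called in either direction at 20 weeks was 12 by DESeq2, which tested more genes of the list, and 3 with nodule 1 alone. Of all genes, 36.2% and 37.4% were called in either direction in those fits. Rup2, named here because it lies near LOC100360095, changed little by comparison (-0.72, SE 0.16, edgeR adjusted p = 0.00328, short of a 2-fold change).

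Genes with sex-biased expression in rat liver and genes of growth hormone signaling were also listed, since alpha-2u globulins are made in male liver under hormonal control. In NT liver at 14 weeks 2 of 6 male-biased genes fell and none rose: Cyp2c11, the main male-specific cytochrome P450 (-2.75, SE 0.33, edgeR adjusted p = 0.000199), and Cyp2a2 (-1.15, SE 0.19, edgeR adjusted p = 0.000797). Of 6 female-biased genes, A1bg (4.52, SE 0.89, edgeR adjusted p = 0.00386) and Cyp2c12 (3.33, SE 0.42, edgeR adjusted p = 0.000436) rose, while Cyp2c7 (-2.21, SE 0.16, edgeR adjusted p = 4.93e-06) and Cyp3a9 (-1.79, SE 0.33, edgeR adjusted p = 0.00235) fell. The list thus went both ways. In nodules all 6 male-biased genes were lower at 14 and at 20 weeks, and of the female-biased genes 2 were higher and 4 lower at each time.

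Of 14 genes of growth hormone and STAT5 signaling, 3 fell and 2 rose in NT liver at 14 weeks, with a median of 0.45. Those that fell included Igf1, the growth factor that liver makes under growth hormone (-1.05, SE 0.09, edgeR adjusted p = 9.09e-06), and Igfals, which carries it in blood (-1.03, SE 0.12, edgeR adjusted p = 5.47e-05). Socs1, a brake on cytokine signaling (1.22, SE 0.30, edgeR adjusted p = 0.00514), and Cux2, a transcription factor higher in female liver (1.14, SE 0.28, edgeR adjusted p = 0.00603), rose. In nodules 5 were lower and 2 higher at 14 weeks, and 6 lower and 1 higher at 20 weeks. Among 6 genes tested of teneurins and their partners, Flrt3 (2.09, SE 0.36, edgeR adjusted p = 0.000645) and Flrt2 (1.02, SE 0.24, edgeR adjusted p = 0.00428), cell-surface binding partners, rose in NT liver at 14 weeks and none fell there. In nodules 2 of these 6 were lower and 2 higher at 14 weeks, and 3 lower and 2 higher at 20 weeks.

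**Figure D5:**
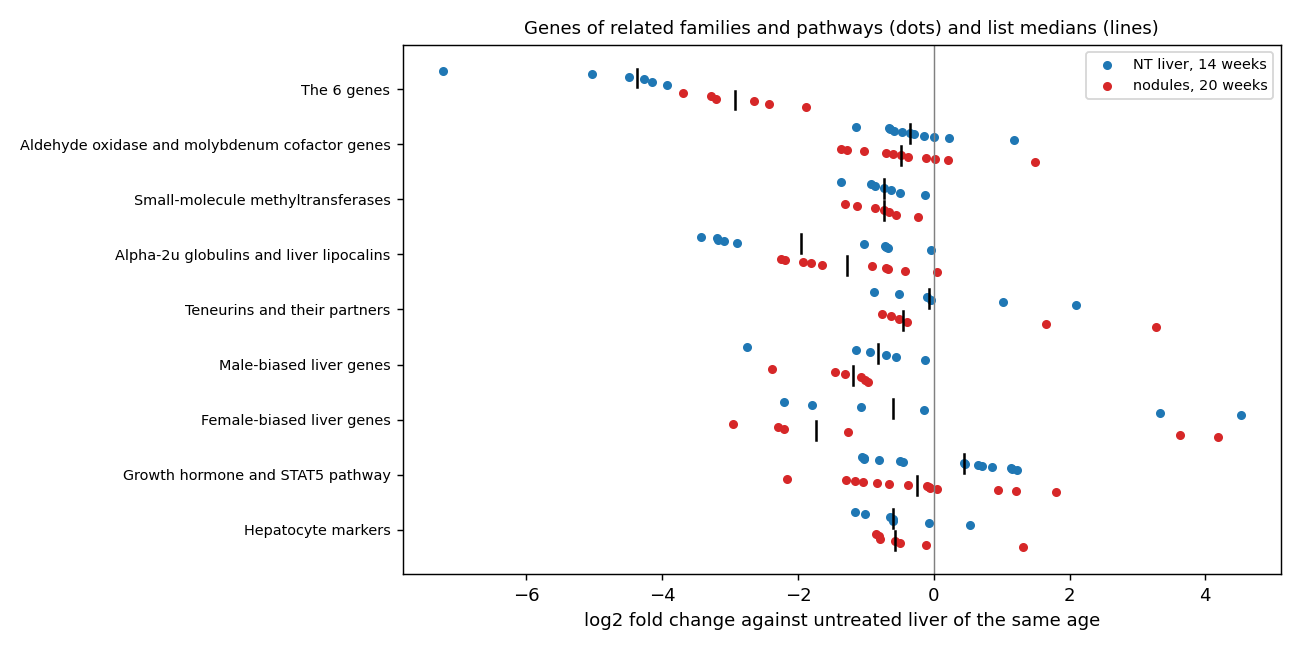
Log2 fold change against untreated liver of the same age (horizontal axis) for the tested genes of each list (dots), in NT liver at 14 weeks (blue) and nodules at 20 weeks (red), with list medians as lines. The medians of the 6 genes are -4.38 and -2.93, and nothing is read from their rank because these genes were picked for deep falls. Their dots overlap with those of several lists in nodules. Among the lists, the lowest median is that of the lipocalins in NT liver (-1.96) and of the female-biased genes in nodules (-1.74).

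Markers of cell types moved in the same samples. Of 7 hepatocyte markers, Apoc3 (-1.16, SE 0.16, edgeR adjusted p = 0.000191) and Ttr (-1.01, SE 0.16, edgeR adjusted p = 0.000414) fell in NT liver at 14 weeks and none rose, with a median of -0.61. Their summed level was 288311 to 324991 CPM in untreated rats, 190864 to 239803 CPM in NT liver and 171325 to 202423 CPM in nodules at 14 weeks. The 6 genes fell by at least 3.93 on the log2 scale in NT liver at 14 weeks. They were picked for deep falls, so nothing is read from their falls being larger than those of the hepatocyte markers. All 4 cholangiocyte markers tested rose, led by Krt19 (3.74, SE 0.60, edgeR adjusted p = 0.00131), from a summed 16.4 to 24.1 CPM in untreated rats to 38.4 to 88.7 CPM. Of the others, 3 of 6 stellate cell and fibroblast markers and 3 of 5 endothelial markers rose, and the 6 macrophage and 4 lymphocyte markers tested had medians of 0.46 and 0.49. At 20 weeks the summed hepatocyte markers were 232966 to 306095 CPM in NT liver and 164349 to 236101 CPM in nodules. The summed cholangiocyte markers were 34.5 to 55.5 CPM in NT liver and 71.4 to 187 CPM in nodules, the only cell type whose ranges did not overlap between these groups. The part of these changes in cell makeup in the levels of the 6 genes was not tested.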

How the data were processed

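The values used were whole-number counts of read pairs per gene, deposited by the authors, 1 file per library, with no normalization. Per the labels and the study's methods, stranded mRNA libraries were read as 75 bp pairs, aligned to rn6 with STAR 2.7.1a and counted on exons with HTSeq, with pairs matching several places dropped (7.96% to 16.3% of pairs). Groups came from the labels, and replicates are rats. The members and gene lists were chosen with earlier results of these data known.

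Both nodules of a rat were summed into 1 count per gene. Each comparison used only the groups compared, with filterByExpr, TMM scaling and the robust quasi-likelihood test of edgeR 4.0.16 (R 4.3.3, 2-sided), and Benjamini-Hochberg adjustment over all genes tested. The procedure was tested on simulated data. Calls needed a log2 change of 1 or more either way with an adjusted p up to 0.01 for NT liver, of 0.5 or more with an adjusted p up to 0.05 for nodules, and an adjusted p up to 0.05 for differences between weeks. Week-8 NT and all week-20 comparisons of the 6 genes are descriptions, since those values bore on their choice. Intervals are not adjusted for the number of genes. Standard errors come from the spread between rats, and read pairs copied in amplification are not independent molecules.

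Named genes were the 6, the 3 next largest falls at 8 weeks among genes of at least 1 CPM in untreated liver, up to 4 called genes of each list by size of change at 14 weeks in NT liver, and the 3 genes most like each of the 6 by correlation. Other genes were named after their values were seen. Alternatives were DESeq2 1.42.0, other scaling, no filter, all 8 groups in the fit, leaving out rats, single nodules and the rat as a block. The labels give nodules and NT liver the name of their rat, and their deviations from the group means correlated (r = 0.390 to 0.616 at 14 weeks and 0.580 to 0.647 at 20 weeks). Promoter windows and gene order are RefSeq's, build GRCr8.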

Additional observations from a re-analysis of the deposited data

Results flagged for a closer look

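Each value named here stood apart from its group by Dixon's test at the 95% level, which chance alone sets off in about 1 of 20 groups. It was met in 2 of 48 groups of 4 rats and in 5 of 12 groups of 8 nodules. The nodule groups hold pairs from the same rat, so they are not 8 independent values.

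Among untreated rats, Cela1 in rat H16 at 20 weeks measured 4.57 CPM, where the next lowest was 5.92 CPM. LOC100360095 in rat H07 at 8 weeks measured 409 CPM, where the next lowest was 569 CPM. Both remained above every DEN rat of their week.

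Among nodules at 14 weeks, Aox3 in nodule 2 of rat H23 measured 1.01 CPM (next highest 0.486), Cela1 in nodule 1 of rat F06 measured 1.401 CPM (next highest 0.812) and Tenm2 in nodule 1 of rat H21 measured 0.532 CPM from 21 counts (next highest 0.151). Among nodules at 20 weeks, Tenm2 in nodule 2 of rat H25 measured 0.468 CPM (next highest 0.255), and LOC100360095 in nodule 1 of rat F03 measured 382 CPM (next highest 189.8), above the lowest untreated rat of that week (353 CPM). All 5 were the highest nodule of their group, and the cause was not tested.

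The effect on Aox3 in nodules differed between weeks. It was 5.09 higher on the log2 scale at 20 than at 14 weeks (SE 0.58), which is a description, because the gene was chosen as one that comes back at week 20. The rats of the 2 weeks are different animals.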

How the results depend on the processing

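The calls of all 6 genes in NT liver and in nodules at 14 weeks held under every alternative run, and all 6 stayed past the nodule threshold at 20 weeks. Of the 6, the count past the threshold in the difference of the nodule effect between weeks, given as a description, moved from 1 to 3 with DESeq2 and to 2 with all 8 groups in the fit, and it was 1 to 2 when each rat was left out (2 without rat H28). The share of all genes called higher, with the called members included, was 0.00862%, 0.035% with DESeq2, 0.0259% with all 8 groups and 0.0346% without rat H28. The added genes were LOC100360095 in each case and, with DESeq2, Obp3. Signs turned only in differences that had not been called. For Obp3 between nodules and NT liver at 14 weeks the log2 difference was -0.17 to 0.33 with each rat left out, negative without rat F06, which is also the fit without the F rats, and -0.00782 with nodule 1 alone, and for LOC100360095 it was -0.41 to 0.0901, positive without rat H22. For Cela1 the difference between weeks was -0.24 to 0.42 with each rat left out, negative without rat F03 or H11 (-0.03), -0.0161 without the F rats and -0.14 with nodule 1 alone. For Tenm2 the difference between weeks was -0.45 with nodule 1 alone, and its highest value over the alternatives was 2.42. The causes were not tested.

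With the rat as a replicate block, the pairing left the count of the 5 tested genes called between nodules and NT liver at 14 weeks at 0. At 20 weeks it moved the median log2 difference of the 6 genes from -1.01 to -1.21, the number of the 6 past the threshold from 0 to 4 and the number of all genes called from 0 to 1693 (DESeq2 902, all 8 groups in the fit 1096). Tenm2 rests on 1 to 6 counts per library in NT liver at 14 weeks, and its levels there are known only roughly.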
